A study of Mus musculus with 6 samples.

Results

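Cytosolic ribosomal protein genes encode the protein part of the ribosome, and they were followed here in mouse lung under a control and a high fat diet. Members were the probe sets whose platform annotation names a single symbol of the Rpl, Rps or Rplp series or Rpsa, with pseudogenes and the S6 kinases left out. This gave 105 of 45101 probe sets, for 49 of the 18193 genes that a probe set names alone. Of these, 92 probe sets for 46 genes passed a filter on dim signals and were tested. Rpl3l, Rpl39l and Rps16 had no probe set above the filter. A further 110 probe sets name a ribosomal protein symbol beside other symbols, such as pseudogenes. They are not members and are given below in aggregate.

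RNA came from the lungs of 6 wild type mice, 1 Affymetrix array each, 3 fed a control and 3 a high fat diet. The sources used here do not give strain, age, sex or the composition and length of the diets. Both groups are lung from mice labelled wild type. The sample numbers of the groups lie in separate ranges, and a batch that follows them cannot be told apart from diet. Signals are MAS5 intensities on a linear scale, scaled by the authors to the same trimmed mean on each array, so each signal is relative to the rest of its array.

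The ribosome has a small subunit, which reads the mRNA, and a large subunit, which joins amino acids. Nearly every ribosomal protein is present once per ribosome, and cells keep their synthesis balanced. The mRNAs of these proteins share a pyrimidine tract at the 5′ end, the terminal oligopyrimidine or TOP tract, through which mTOR and Larp1 control their translation. Mammalian ribosomal proteins were numbered by their migration in gels, so that higher numbers tend to mark smaller proteins. Rpl4 is among the largest and Rpl41 is the smallest.

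Promoters were looked up because members of this family share start site features while only some of them were called higher. RefSeq windows of assembly GRCm38.p6, from 250 bases before the annotated start to 50 from it on, were found for 43 of the 49 genes. Below, 50 bases before and 30 bases from the start on are shown on the gene's strand for 4 members with higher signals in high fat mice (Rpl38 at chr11:114668530-114668609, plus strand; Rps28 at chr17:33824533-33824612, minus strand; Rpl37a at chr1:72711210-72711289, plus strand; Rpl41 at chr10:128549139-128549218, minus strand). They are followed by 4 members that were not called (Rpl4 at chr9:64173337-64173416, plus strand; Rps3 at chr7:99483680-99483759, minus strand; Rpl6 at chr5:121204451-121204530, plus strand; Rpl11 at chr4:136053364-136053443, minus strand). Capitals mark CTTTC on the gene's strand, a short pyrimidine run, and CGGAAG on either strand, the core letters bound by ETS factors such as GABP.
Rpl38: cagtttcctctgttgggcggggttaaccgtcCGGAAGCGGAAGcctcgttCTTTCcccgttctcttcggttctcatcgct
Rps28: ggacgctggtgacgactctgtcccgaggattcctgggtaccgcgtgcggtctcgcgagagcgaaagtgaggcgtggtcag
Rpl37a: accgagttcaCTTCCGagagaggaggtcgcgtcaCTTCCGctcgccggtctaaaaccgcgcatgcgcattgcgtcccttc
Rpl41: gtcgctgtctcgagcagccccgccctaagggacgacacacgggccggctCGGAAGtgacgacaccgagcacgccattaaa
Rpl4: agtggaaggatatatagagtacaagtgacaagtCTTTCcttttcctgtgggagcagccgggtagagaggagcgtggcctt
Rps3: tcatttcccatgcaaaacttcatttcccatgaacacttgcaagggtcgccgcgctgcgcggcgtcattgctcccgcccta
Rpl6: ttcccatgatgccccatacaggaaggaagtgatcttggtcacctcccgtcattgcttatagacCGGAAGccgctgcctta
Rpl11: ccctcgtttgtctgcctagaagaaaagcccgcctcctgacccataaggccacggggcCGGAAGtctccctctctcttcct

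CTTTC on the gene's strand was present in 31 of 51 windows of member genes (60.8 percent), against 34.8 percent of all 32851 windows. CGGAAG on either strand was also present in 31 of 51 (60.8 percent), against 16.9 percent of all windows. Within 30 bases of the annotated start, each of these letter strings occurred in 27.5 percent of member windows, against 7.93 and 6.57 percent of all. TATAAA on the gene's strand occurred in 9.8 percent of member windows and 8.32 percent of all. Among windows of the members called higher in high fat mice, 7 of 15 held CTTTC and 10 of 15 held CGGAAG, and among those of members tested and not called 23 of 32 and 19 of 32. The annotated start may differ from the one used in lung, and a match is a description of the letters only.

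In the lungs of high fat mice, 14 of 46 ribosomal protein genes had higher signals and 0 had lower ones (limma, adjusted p under 0.05; 24 of 46 had an unadjusted p under 0.05). Over all 12689 genes tested, 4.56 percent were called higher and 2.2 percent lower. Among genes with a mean signal of at least 2000, 7.97 percent of all and 12 of 36 ribosomal protein genes were called higher. Of all 46 ribosomal protein genes, 30.4 percent were called higher. The genes that rose were Rpl38, Rps28, Rpl37, Rps29, Rpl37a, Rpl41, Rps27l, Rplp2, Rpl22, Rpl35, Rpl22l1, Rps26, Rpl27 and Rpl7l1. Rises ran from 0.53 to 1.65 on the log2 scale, while the median over all 46 was 0.14, against 0.06 over all genes. Among the 32 genes not called, log2 differences ran from -0.87 for Rps25 to 0.89 for Rpl27a, and some had an unadjusted p under 0.05, so a missing call does not show an unchanged level. The count of ribosomal protein genes called higher was 6 without an intensity trend in the variance model and 6 without control replicate 3. Of all genes, 0.827 and 0.977 percent were called higher under these settings. The median of the family was 0.0010 with quantile normalization and 0.42 with arrays centred on their median. Over all genes these medians were 0.10 and 0.33. In lung tissue, a change in the number of cells of a type and a change in RNA per cell cannot be told apart.

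**Figure D1:**
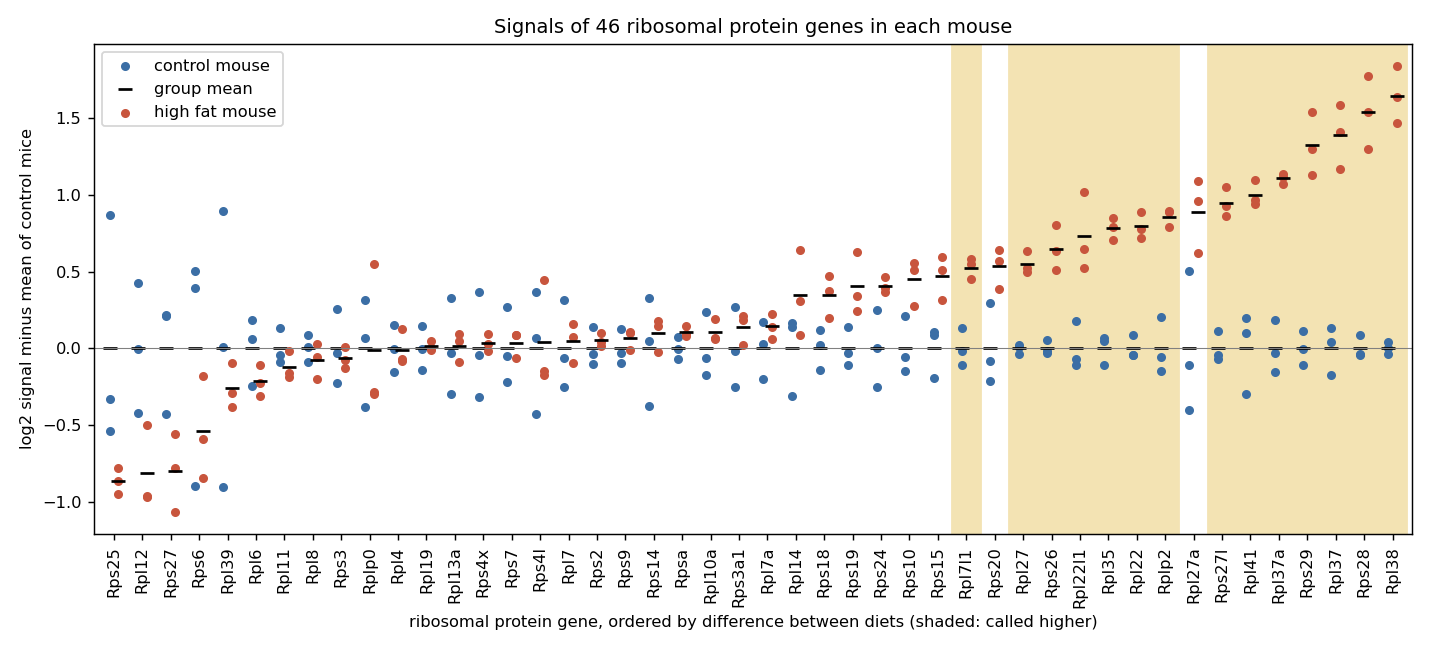
Log2 signal of each mouse minus the mean of the 3 control mice, for the 46 tested ribosomal protein genes ordered by the difference between diets. Points are mice, dashes are group means, and shaded genes are those called higher. The difference runs from -0.87 for Rps25 to 1.65 for Rpl38, and the high fat points of the shaded genes lie above all control points.

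Rpl38, a large subunit protein, is known for selective translation of Hox mRNAs in the embryo. With each member read by its brightest probe set, Rpl38 showed the largest rise among members. Its signals were 5124, 5403 and 5265 in controls and 18822, 16378 and 14544 in high fat mice. All high fat values lay far above all control values, at 3.13-fold (log2 1.65, SE 0.13, limma adjusted p = 0.00131). Rps28, a small subunit protein close to the mRNA exit, had signals of 6336, 5802 and 5817 against 20435, 17394 and 14746. This was 2.9-fold (SE 0.14 on the log2 scale, limma adjusted p = 0.00218), again with a wide gap between the groups. Rps29, a zinc-binding protein of the small subunit, read 8810, 7565 and 8125 in controls against 23723, 20030 and 17844 under high fat. Its means were 8167 ± 623 and 20532 ± 2972 (SD, n = 3 each), a 2.5-fold rise (limma adjusted p = 0.00316). In Rpl38, Rps28 and Rps29, high fat replicate 1 was the highest of its group and replicate 3 the lowest. The only tested probe set of Rpl38 and all 3 of Rps29 end in _x_at, and such probe sets can also bind near-identical sequences.

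Rpl37 and Rpl37a, zinc-binding proteins of the large subunit, rose 2.62-fold and 2.16-fold (limma adjusted p = 0.00478 and 0.00425). Rpl37a had signals of 9790, 10656 and 12352 in controls and 23630, 23904 and 22839 in high fat mice. Rpl37 was read only by a dim probe set ending in _x_at, with 310, 266 and 330 against 905, 799 and 675. Both had clear gaps between the groups. Rpl41, the smallest ribosomal protein, had signals of 11629, 16420 and 15288 against 27397, 27937 and 30542. That is 2.0-fold (log2 1.0, SE 0.16, limma adjusted p = 0.012), although the control mice differed among themselves. Averaged over its bright and dim probe sets, Rpl41 was at log2 0.22 and was not called (limma adjusted p = 0.461). Read by a dim probe set without an _x_at, _s_at or _a_at suffix, it was at -0.55 (limma adjusted p = 0.32).

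Rplp2, an acidic protein of the stalk that recruits elongation factors, rose 1.81-fold (limma adjusted p = 0.0123), with means of 15283 ± 1953 and 27563 ± 1124 (SD, n = 3 each). Rplp0, which anchors the same stalk, was not called. Its signals were 14981, 24271 and 20383 in controls and 28506, 16035 and 15827 in high fat mice, so the groups overlapped and high fat replicate 1 alone was high (log2 -0.01, SE 0.26). The sign of that value changed with 1 mouse left out and with centring on the array median. Rpl35, which lies at the exit of the peptide tunnel, rose 1.72-fold (10901, 12137 and 12307 against 19217, 20312 and 21176), while its dim probe set without such a suffix was at log2 -0.66 and was not called. Rpl27 rose 1.47-fold and Rps26, which touches the mRNA near the exit channel, 1.57-fold (limma adjusted p = 0.0265 and 0.0186). The groups did not overlap for either gene. Rpl27a, another large subunit protein, read 363, 680 and 445 in controls and 735, 1019 and 931 in high fat mice. This was 1.85-fold without overlap, a larger value than that of Rplp2, but its spread was wider and it was not called (SE 0.24 on the log2 scale, limma adjusted p = 0.0576). Rpl27a was called with robust eBayes, with array weights, with the replicate block and with centring on the array median. The same probe set was also called in the main test over probe sets (limma adjusted p = 0.0414).

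Paralogs are near copies of a core ribosomal protein, and 4 were tested. Rps27l, a p53-inducible paralog of Rps27, had signals of 2198, 1931 and 1968 in controls and 4207, 3854 and 3693 under high fat, which is 1.93-fold (limma adjusted p = 0.00425). Rpl22l1, the paralog of Rpl22, rose 1.66-fold (limma adjusted p = 0.0291), with means of 5013 ± 546 and 8384 ± 1550 (SD, n = 3 each). Rpl22 itself, an RNA-binding protein of the large subunit, rose 1.74-fold, with 9673, 10589 and 9701 against 17143, 18506 and 16395. Rpl22 and Rpl22l1 thus both had higher signals, without overlap between groups.

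Rpl7l1, a paralog of Rpl7, rose 1.44-fold (limma adjusted p = 0.0361), with 1099, 991 and 930 against 1469, 1372 and 1501. Its other probe sets were at log2 -0.05 and 0.27, neither called, and with the mean of all 3 the difference was 0.25 and the call was lost (limma adjusted p = 0.275). Rpl7 was at 19322, 28561 and 21984 in controls and 24161, 25689 and 21460 in high fat mice, with overlapping groups (log2 0.04, limma adjusted p = 0.897). The difference between Rpl7l1 and Rpl7 was not tested. Rps4l was at log2 0.04 and its X-linked core gene Rps4x at 0.03 (limma adjusted p = 0.936 and 0.926). Their signs changed with 1 mouse left out, and that of Rps4x also with quantile normalization.

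Rpl3l, the muscle paralog of Rpl3, did not pass the filter and was not tested. It had signals of 378, 13.2 and 66.3 in controls and 187, 7.07 and 95.0 in high fat mice, highest in replicate 1 of both groups. The summed signal of 9 skeletal muscle markers was 60719, 685 and 3628 in controls and 18965, 1297 and 1500 in high fat mice, and it too was highest in replicate 1 of both groups. Rpl39l, a paralog expressed in testis, was below 70.3 in all 6 mice.

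Rpl11, Rpsa and Rps6, members often studied for other roles, were not called. Rpl11, which with Rpl5 carries the 5S RNA and binds the p53 regulator Mdm2, had signals of 11697, 13627 and 12049 in controls and 11136, 12296 and 10936 in high fat mice (log2 -0.12, SE 0.12, limma adjusted p = 0.577). Rpsa, first described as a laminin receptor precursor, was at 18389 ± 891 and 19776 ± 448 (SD, n = 3 each; log2 0.11). The groups did not overlap for Rpsa, but its difference was not called (limma adjusted p = 0.614), and its sign turned with quantile normalization. Rps6, the substrate of the S6 kinases, had a dim probe set with 891, 364 and 964 against 600, 450 and 378. The control mice overlapped both sides of the high fat range, and the log2 difference was -0.54 (SE 0.35, limma adjusted p = 0.374).

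The 5 members with the brightest representatives, Rps4x among them, were not called. Rps3a1 was at 35613 ± 6412 and 38866 ± 2717, Rps14 at 28225 ± 6738 and 29721 ± 2223, and Rpl4 at 27553 ± 2921 and 27328 ± 2313 (SD, n = 3 each). Rpl13a, a common reference gene in PCR, was at 26476 ± 5856 and 26402 ± 1718 (SD, n = 3 each). Their log2 differences lay between -0.01 and 0.14, within 1 SE of 0, and the sign of each turned under at least 1 alternative.

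Among 39 core members with a number in the symbol, 10 of the 15 numbered above 20 were called higher. Of the 24 numbered up to 20, 0 were called higher, and of all genes tested 4.56 percent were. Each gene was read here by its brightest probe set. In the test over probe sets, other bright ones of Rps10, Rps15 and Rps18 were called higher (limma adjusted p = 0.0263, 0.0278 and 0.0404). The median log2 difference was 0.80 above 20 and 0.05 up to 20. This division was chosen after the values had been seen, so it carries no test. For the 31 core members with a mean signal of at least 2000, the number and the log2 difference had a Spearman rank correlation of 0.80 and a Pearson r of 0.85. For the same 31 genes the rank correlation fell from 0.80 to 0.27 when representatives were chosen among probe sets without an _x_at, _s_at or _a_at suffix where possible. Under that choice Rpl35, Rps20, Rps10, Rps9, Rpl41, Rps3 and Rps24 were read by dim probe sets, with mean signals of 72.6 to 655. Suffix and dimness thus changed together, and their parts in the fall were not tested. Over all 39, with dim probe sets included, it was 0.57. These genes share the same 6 arrays and the correlations are descriptions. Of members above 20, 5 were called without control replicate 3 and 5 without an intensity trend. Of all genes, 0.977 and 0.827 percent were then called higher. With arrays centred on their median, 5 of the 24 members up to 20 were called higher, where 24.1 percent of all genes were.

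**Figure D2:**
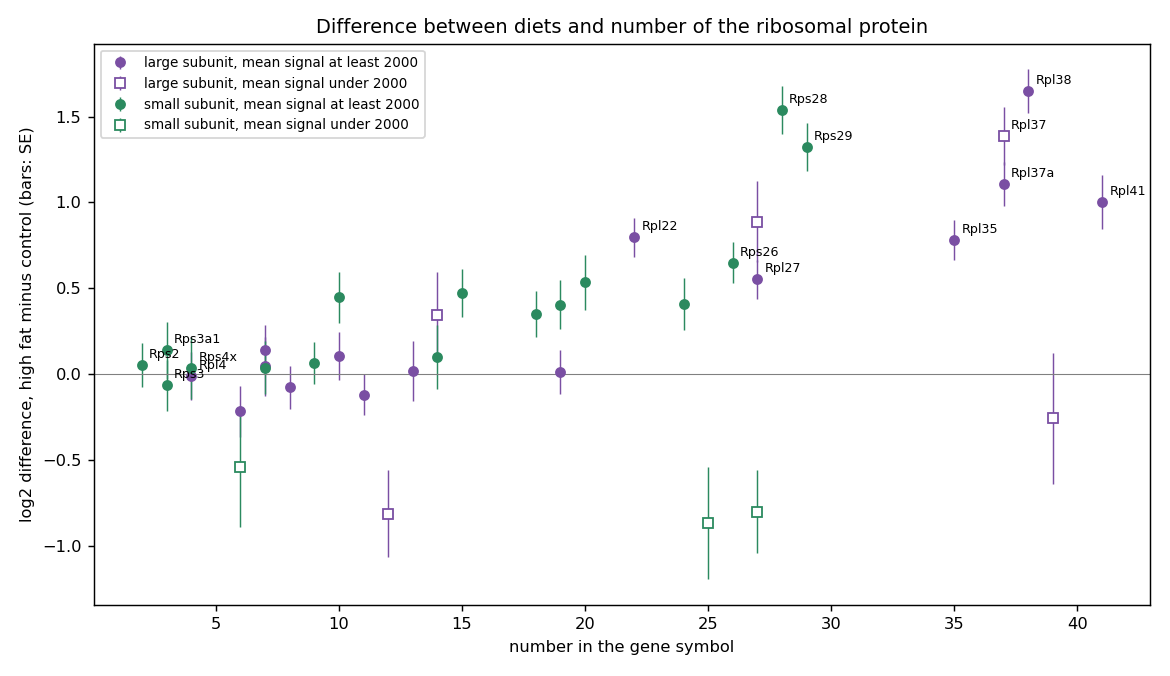
Log2 difference between diets with its SE against the number in the gene symbol, for 39 core ribosomal protein genes. Filled circles have a mean signal of at least 2000 and open squares a lower one. Filled points up to number 14 lie between -0.21 and 0.14 except Rps10 at 0.45, and those above 20 lie between 0.41 and 1.65.

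Averaged over the 10 bright core members numbered above 20, log2 signals relative to the control mean were -0.08, 0.05 and 0.03 in controls and 1.04, 0.99 and 0.92 in high fat mice. Over the 21 bright core members numbered up to 20, they were -0.19, 0.21 and -0.02 in controls and 0.07, 0.18 and 0.11 in high fat mice. The division was chosen after the values had been seen, so the gap between diets in the first set is a description and adds no support. In the second set the control mice spanned the high fat range. Of 10 bright members above 20, Rps24 alone was not called by its brightest probe set (log2 0.41, limma adjusted p = 0.139). Just below the division, the brightest probe sets of Rps20, Rps19 and Rps18 were at 0.53, 0.40 and 0.35 and that of Rpl19 at 0.01, none of them called. In the test over probe sets, another bright one was called higher for Rps24 (log2 0.57, limma adjusted p = 0.0391) and for Rps18 (log2 0.42, limma adjusted p = 0.0404).

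Subunits were both represented among the rises. In the large subunit 10 of 24 genes rose and in the small subunit 4 of 22, with medians of 0.24 and 0.12 on the log2 scale. Of all genes, 4.56 percent were called higher, with a median of 0.06. The difference between subunits was not tested. Groups did not overlap for 22 of 46 genes toward higher and 3 toward lower signals, where all genes gave 19.7 and 12.1 percent.

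The same genes were often read by several probe sets, which share the RNA of the same mice. Over probe sets, 35 of 92 were called higher and 0 lower (limma adjusted over 27022 probe sets; 53 with an unadjusted p under 0.05), where 4.63 percent of all were called higher and 8.27 percent lower. Without control replicate 3 the count was 23. All 3 probe sets of Rps28 rose (1.47 to 1.55 on the log2 scale), as did all 3 of Rps29 (1.26 to 1.42), of Rps27l (0.72 to 1.18) and of Rpl27 (0.55 to 0.99). Rpl22 also had 3 called probe sets, but their rises ran from 0.48 to 2.17. One of them went from 1594, 1832 and 2629 to 8191, 9333 and 9086, a larger rise than the representative showed.

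Probe sets of a gene disagreed mostly where one was dim. Of 20 genes with several tested probe sets, 10 had all differences of one sign. Of 17 genes with several probe sets of mean signal at least 2000, 15 did, and Rpl7 and Rpl13a did not. For Rpl41, 2 bright probe sets rose by 1.0 and 1.03, while 2 dim ones were at -0.55 and -0.58 and were not called. Rpl35 had 5 called probe sets (0.72 to 0.95) and 1 at -0.66 with signals of at most 110. Rps10, a small subunit protein, ranged from -0.14 to 1.08 over 6 probe sets, with 1 called.

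**Figure D3:**
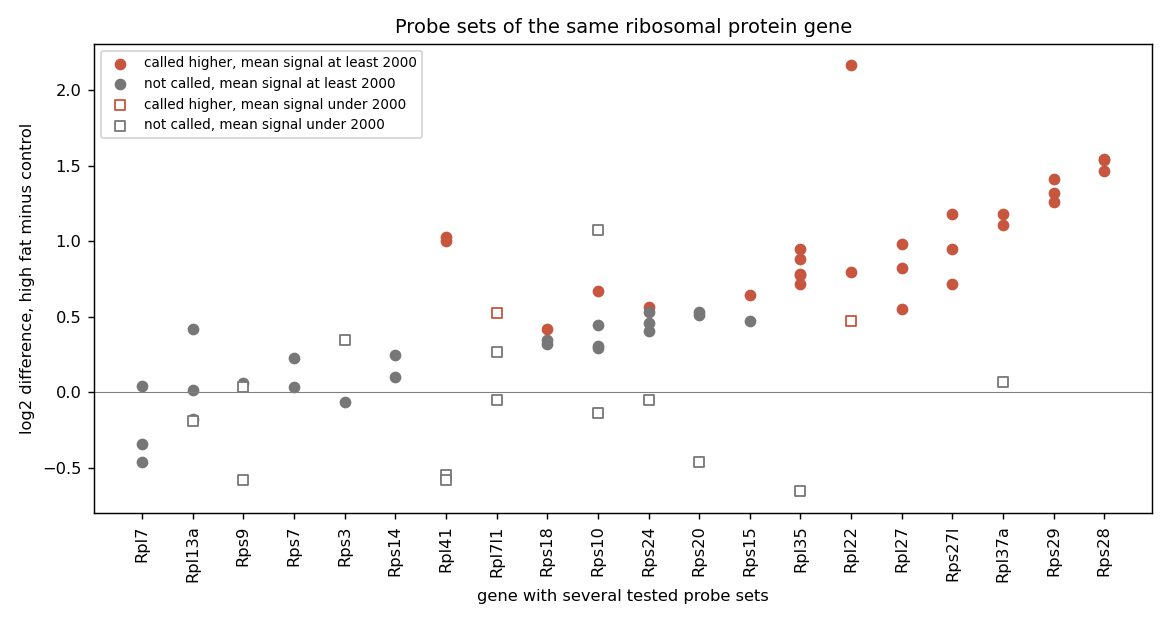
Log2 difference between diets of each tested probe set, for the 20 ribosomal protein genes with several. Circles have a mean signal of at least 2000, open squares a lower one, and red marks probe sets called higher. The probe sets of Rps28 lie between 1.47 and 1.55, whereas dim probe sets of Rpl41 and Rpl35 lie below 0.

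The 5 genes with the dimmest representatives were Rps25, Rpl39, Rpl12, Rps27 and Rpl14, and none was called. Rps25, Rpl12 and Rps27 had lower signals in high fat mice without overlap between groups (log2 -0.87, -0.81 and -0.80, limma adjusted p = 0.141, 0.0905 and 0.0827). Rps27, the core partner of Rps27l, was at 263, 413 and 409 in controls and 206, 169 and 241 in high fat mice. Rpl39 (log2 -0.26) changed sign without control replicate 2 and with centring on the array median. Over all genes with a mean signal under 2000, the median log2 difference was 0.05, against 0.08 for the brighter genes. Over all probe sets, the medians were -0.09 for those under 2000 and 0.08 for the brighter ones.

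Probe set suffixes also differed. Probe sets ending in _x_at or _s_at can bind near-identical sequences, including the many ribosomal protein pseudogenes. Of 38 members ending in _x_at, 19 were called higher (all such probe sets: 7.46 percent), and of 27 ending in _a_at, 10 (all: 6.22 percent). Of 24 members with no such suffix, 4 were called higher (all: 3.86 percent). Signals of a gene and of its copies cannot be separated for the first class.

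Probe sets that name several symbols, among them a ribosomal protein, were outside the selection. Of 103 tested, 24 were called higher (23.3 percent) and 2 lower, with a median log2 difference of 0.24. Of all probe sets, 4.63 percent were called higher and 8.27 percent lower. At a mean signal of at least 2000, 23 of 82 were called higher, against 10.8 percent of all probe sets that bright. Of the 103, those with a ribosomal protein number above 20 had 21 of 49 called higher (42.9 percent) and 1 lower (median 0.45). Those up to 20 had 3 of 53 called higher and 1 lower (median 0.09), and these 5.66 percent are near the share of all probe sets. They come from the same mice and in part from the same genes, so they repeat the measurement on other probes, not on other animals.

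Other lists of protein synthesis held 0 to 6.67 percent of genes called higher, against 4.56 percent of all genes tested, and 2.2 percent of all genes were called lower. Of 11 elongation and termination factors, 0 were called (4 with an unadjusted p under 0.05; median 0.08). The largest was the translocase Eef2, at 11847 ± 858 and 15809 ± 383 (SD, n = 3 each; limma adjusted p = 0.0651). Of 34 initiation factors, 2 rose (5.88 percent) and 2 fell (median 0.01). Eif3e and Eif3m, subunits of the scaffold factor eIF3, fell to 0.682 and 0.685 times the control level, and Eif1b and Eif2s3x rose 1.39-fold and 1.33-fold. For Eif3e the SD was 5.31 around a mean of 6357 in high fat mice, against 538 around 9334 in control mice.

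Of 15 other TOP transcripts and ribosome-linked proteins, the histone chaperone Nap1l1 rose 1.52-fold (limma adjusted p = 0.0484) and 0 fell (median 0.13). Fau, a fusion whose ribosomal part belongs to the small subunit, was at log2 0.46 (limma adjusted p = 0.0881). Of 69 ribosome biogenesis factors, 2 rose (2.9 percent) and 5 fell (median -0.12). Nop10, a small protein of the pseudouridylation complex, rose 1.98-fold (limma adjusted p = 0.00322) and Rrp1 1.46-fold. Taf1d and Taf1b of RNA polymerase I initiation, Rpf1, Ddx21 and Sbds fell, to between 0.538 and 0.72 times the control level. Among 27 regulators of ribosomal protein synthesis, Deptor, an inhibitor of mTOR, rose 1.59-fold (limma adjusted p = 0.0209) and 0 fell (median -0.04).

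**Figure D4:**
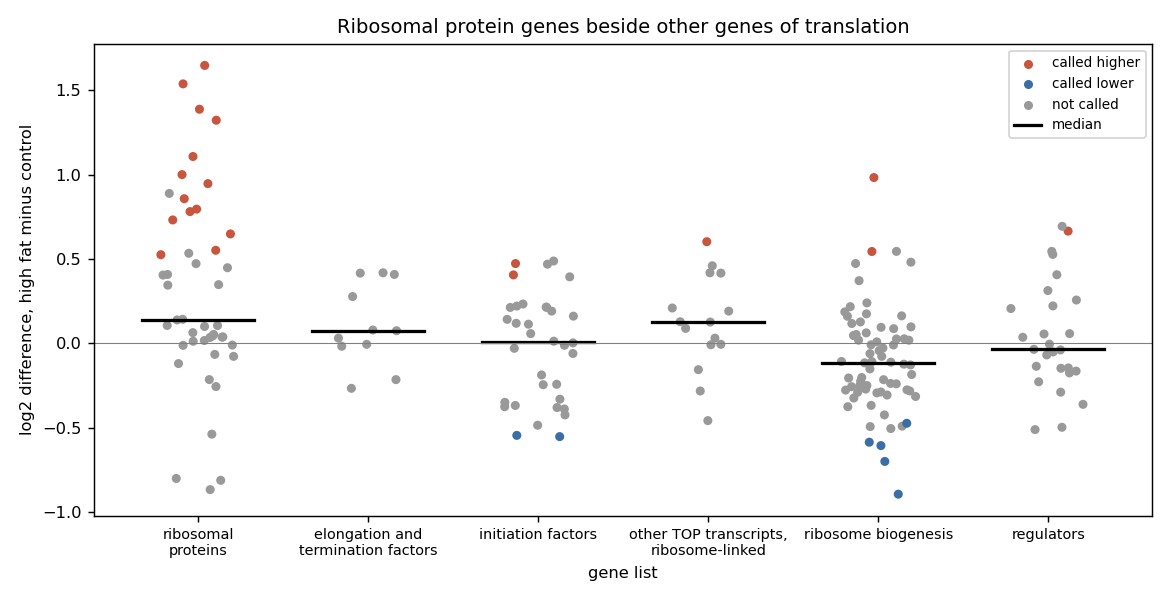
Log2 difference between diets of each tested gene in 6 lists, with the median of each list as a bar and called genes in colour. Ribosomal protein genes include 14 called higher and 0 called lower, while the other 5 lists, of 11 to 69 tested genes, include at most 2 called higher and at most 5 called lower.

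Several properties of the samples moved with diet, and their part in the ribosomal protein differences was not tested. The 3′ over 5′ ratio of the Gapdh control probe sets was 0.768 ± 0.026 and 0.915 ± 0.054, and that of b-Actin 1.31 ± 0.12 and 1.52 ± 0.02 (SD, n = 3 each; two-sided exact permutation p = 0.1 for each, the smallest that 3 against 3 allows). Array medians of signal were 143 to 150 in controls and 113 to 129 in high fat mice. Of 10 adipocyte markers on the array, 6 of 9 tested rose, with summed signals of 10879 to 18679 in controls and 32728 to 49061 in high fat mice. Of 7 B lineage markers, 4 fell (summed signal 4959 to 7105 against 1831 to 3680), and of 8 tested T and NK markers, 3 fell (3100 to 3953 against 1667 to 2619). Of 8 cardiac markers, 1 rose (20865 to 47523 against 44338 to 162647), and of 5 smooth muscle markers, 3 (18829 to 22390 against 28377 to 54321). Of 6 tested neutrophil markers 2 fell (5167 to 15728 against 2035 to 3734), and of 6 endothelial markers 2 fell (31126 to 39741 against 24853 to 33495). Of 3 tested brown fat markers 1 rose (435 to 983 against 1116 to 4544), and 0 of 7 tested skeletal muscle markers were called. No marker was listed at 0 on any array. The alveolar type 2 markers, which mark lung tissue, had 0 of 5 called (101043 to 156544 against 135720 to 155200), as did alveolar type 1 markers (60158 to 81548 against 73428 to 78134).

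Control mice differed among themselves in a shared way. Control replicate 1 had the lowest control signal in 36 of 46 ribosomal protein genes and control replicate 2 the highest in 35. The highest signal of any probe set was 38296 on the array of control replicate 1 and 75983 on that of control replicate 2, and 50874 to 66963 on the others. Of the 14 genes called, Rpl37, Rpl37a, Rpl38, Rps27l, Rps28 and Rps29 were called with any 1 mouse left out. Without control replicate 3 these 6 were the only members called, where 0.977 percent of all genes were called higher. Rpl27 and Rpl7l1 were called in 0 of 6 fits with 1 mouse left out (limma adjusted p up to 0.105 and 0.136). Without replicate 1 of both groups, the mice with the highest skeletal muscle signals, 10 of the 14 were called, where 1.78 percent of all genes were called higher.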

How the data were processed

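The deposited values are intensity values of Affymetrix probe sets in 6 lung samples, made with MAS5, per the submitters' processing notes; the sources used here do not give its version or settings or a genome build. On each array the mean without the highest and lowest 2 percent was 500. A floor of 1 was set before taking log2. Of 45037 probe sets that are not controls, 27022 with a mean log2 signal in the top 60 percent (at least 6.14, a signal of 70.3) were tested with limma 3.58.1 in R 4.3.3 (lmFit, eBayes with intensity trend, two-sided, 1 term for diet, 4 residual degrees of freedom), checked on simulated data. P-values were adjusted by Benjamini-Hochberg over all tested probe sets or, at gene level, over 12689 genes, each read by its brightest probe set that names no other gene. Genes are called at an adjusted p under 0.05. Differences are high fat minus control on the log2 scale; means and SDs are of linear signals. Symbols come from the platform annotation. The number of arrays, 3 per group, limits the precision, and p-values measure only the spread between these samples.

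Members and lists were chosen with earlier results of these data known. Members named are the paralogs, their core genes and members with set roles, the 8 largest rises among called members, the 5 brightest and 5 dimmest and the 4 with probe sets farthest apart; the other genes called are listed too. From each other list, up to 4 genes by smallest p were eligible. Rps3, Rpl6, Rps16, Rps18, Rps19, Rps20, Rps24, Rpl19, Rpl27a, Ddx21, Taf1d and Sbds were chosen after their values were seen. Alternatives were other normalizations, filters, variance models, representatives, the replicate block and leaving out mice.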

Additional observations from a re-analysis of the deposited data

How the results depend on the processing

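The 14 genes called higher were also called with quantile normalization, median centring, an added constant of 32, no filter, a filter at the 60th percentile, robust eBayes and array weights. Centring moved the median of all genes to 0.33, and the share of called genes that were higher from 67.4 to 95.4 percent. Of all genes, 24.1 percent were then called higher, against 4.56 percent in the main fit. With centring 21 ribosomal protein genes were higher, 5 core members numbered up to 20 among them, with a median of 0.42. With quantile normalization the median of ribosomal protein genes was 0.0010, below the 0.10 of all genes, with 1 gene (Rpl6) and 4 probe sets lower. Without an intensity trend 6 ribosomal protein genes were called, 5 of them core members numbered above 20, and 0.827 percent of all genes were called higher. With 1 mouse left out, 6 to 12 ribosomal protein genes were called higher, where 0.977 to 2.88 percent of all genes were. Their probe sets gave 23 to 31 higher and 0 to 2 lower. Of core members above 20, 5 to 9 were called higher, and the median of the family was 0.058 to 0.25. Only 4 probe sets without a suffix were called. The rank correlation of number and difference was 0.68 with the mean of all probe sets, dim ones included. It was 0.27 with representatives without suffix, several of them dim, and 0.79 to 0.83 with 1 mouse left out.

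Replicate numbers do not tie mice together (correlations of same-numbered deviations 0.17, 0.11 and -0.04, and not every mouse correlated best with its own number); with the replicate block 14 genes were called, 13 of them shared (Rpl27a in place of Rpl7l1), and 1 probe set was lower.

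Signs turned for 15 named genes. With quantile normalization, Rpl7 was at -0.18, Rps4x -0.14, Rpsa -0.10, Rps3a1 -0.035, Rps14 -0.063 and Rpl13a -0.16. With centring, Rplp0 was at 0.26, Rpl11 0.15, Rpl39 0.019 and Rpl4 0.26. With the mean of all probe sets, Rpl7 was at -0.25, Rps4x -0.69 and Rps6 0.21. That mean took in probe sets below the filter, with a mean signal of 8.50 for Rps4x and 18.6 for Rps6. With representatives without suffix, Rpl41 was at -0.55, Rpl35 -0.66 and Rps10 -0.14, each read by a dim probe set. Without replicate 1 of both groups, chosen after seeing the data, Rps4l was at -0.082, Rpl7 -0.094, Rps4x -0.097, Rps14 -0.025 and Rpl13a -0.15. With 1 mouse left out, ranges crossing 0 were -0.29 to 0.15 for Rplp0, -0.18 to 0.22 for Rps4l, -0.080 to 0.20 for Rpl7, -0.71 to 0.19 for Rpl39, -0.12 to 0.22 for Rps4x, -0.088 to 0.27 for Rps14, -0.086 to 0.067 for Rpl4 and -0.13 to 0.18 for Rpl13a. The cause of these changes was not tested.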
